A study of Mus musculus with 12 samples.

Results

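The 8 genes Sox10, S100b, Foxd3, Erbb3, Cdh19, Fabp7, Ngfr and Ednrb mark Schwann cells, their precursors and other glia of neural crest origin. They were taken by symbol from a table of 56495 genes, each matched 1 entry, and all 8 passed the filter on low values. They were followed in 12 RNA sequencing libraries of the mouse urogenital sinus at stage E18.5. The urogenital sinus is the embryonic tube around the proximal urethra that gives rise to the prostate in males, and the female dissections also kept the vagina. The libraries form 4 groups of 3: mutant males, wild type males, mutant females and wild type females. Mutants carried Inv(Itga6-nsi)d11lac, by its name an inversion that starts at Itga6 together with an allele written d11lac, and the controls carried neither. Strain, zygosity and whether replicates were separate embryos are not in the labels, so each p measures the spread between libraries, which may be technical.

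Neural crest cells leave the dorsal neural tube, and those that settle in the pelvis form the autonomic ganglia and the glia along their nerves. The transcription factor Sox10 is needed for the glial fate and drives Erbb3, the receptor through which neuregulin from axons keeps Schwann cell precursors alive. Ednrb, the receptor of endothelin 3, maintains crest cells and their glial descendants, and mutations in mice leave the distal gut without ganglia. Several of the 8 genes are also used by other cells: Erbb3 by epithelia, Ednrb by endothelium and mesenchyme, Ngfr by mesenchyme and basal epithelium, S100b by cartilage and fat, and Sox10 and Ednrb by pigment cells.

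Values are FPKM, fragments scaled to gene length and library size by the authors, divided here by a median-ratio factor per library (scaled FPKM). Relative depth was 0.646 to 0.712 in mutant males against 0.829 to 0.889 in wild type males. It was 0.578 to 0.629 in mutant females against 0.807 to 1 in wild type females. Depth therefore did not overlap between genotypes, and its effect cannot be told apart from that of genotype. Mutant males 1 and 3 and wild type male 1 also stood apart, with 12.2% to 14.9% of their FPKM in the small nuclear RNA Rn7sk, against a listed 0 in the 9 remaining libraries. Tests were limma fits over 13904 genes on log2(scaled FPKM + 0.5), and a gene is said to be called where its p, adjusted over all of them by the Benjamini-Hochberg method, is under 0.05.

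Over the 12 libraries the mean levels ran from 24.3 scaled FPKM for Ednrb, 20.0 for Ngfr, 19.2 for Fabp7 and 16.6 for Erbb3 down to 4.71 for Sox10, 1.62 for Foxd3, 1.59 for S100b and 1.16 for Cdh19. The spread was widest for Fabp7, whose highest library stood 8.47 times above its lowest, and for Cdh19 at 5.46 times. It was narrowest for Erbb3 at 1.69 times. Within a gene, the order of the 4 group means differed: wild type males were highest for Ednrb, Ngfr, Fabp7, Sox10, S100b and Cdh19, mutant males for Foxd3 and mutant females for Erbb3. Libraries of neighbouring groups in these orders overlapped for Sox10, Fabp7, Erbb3 and S100b. A single gap opened elsewhere: mutant above wild type males for Foxd3, mutant males above wild type females for Ngfr, wild type females above mutant males for Cdh19, and mutant males above mutant females for Ednrb. In bulk tissue, fewer glial cells and less RNA per cell cannot be told apart.

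Between genotypes, Cdh19, Fabp7 and Ednrb were lower in mutants, while Sox10, Foxd3, Erbb3, Ngfr and S100b were not called. Cdh19 fell in males, in females and on average. Fabp7 and Ednrb fell in females and on average, and their levels in the 3 mutant females were far apart. These 3 genes have the lowest transcript GC content of the 8, and their calls ended when GC content and length were corrected for.

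**Figure D1:**
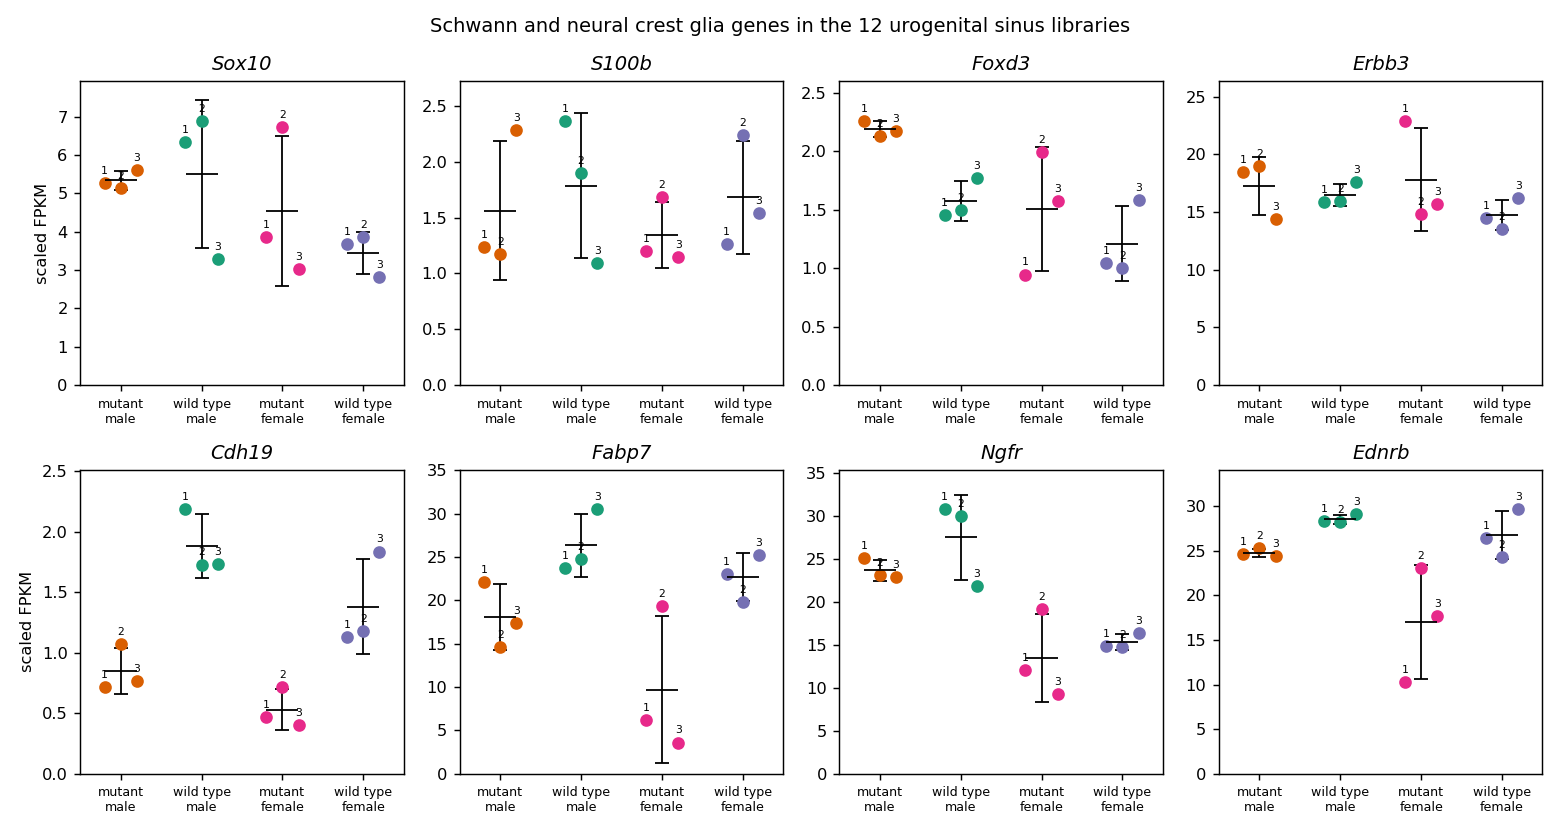
Scaled FPKM of the 8 genes (vertical axes, linear, from 0) in each library, with mutant males, wild type males, mutant females and wild type females from left to right. Points are libraries with their replicate number, the long bar is the mean and the whiskers the SD (n = 3). Each mutant library has less Cdh19 than any wild type library of its sex, and mutant females 1 and 3 lie at 6.20 and 3.60 for Fabp7, below the other 10 libraries.

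Sox10 (ENSMUSG00000033006, chr15:79039108-79049440 in mm39), the master regulator of the glial lineage, was at 5.28, 5.14 and 5.61 scaled FPKM in mutant males 1 to 3, against 6.33, 6.90 and 3.29 in wild type males 1 to 3. Mutant females had 3.85, 6.74 and 3.03 and wild type females 3.68, 3.86 and 2.82. The genotypes overlapped in both sexes, with the mutant males tightly grouped inside the range of the wild type males. The difference over both sexes was 0.16 on the log2 scale (95% interval -0.28 to 0.59, limma adjusted p = 0.553), an interval that includes a rise of up to 0.59. The order of the group means was wild type males, mutant males, mutant females and wild type females, and no neighbouring groups in that order were separated by their libraries.

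Foxd3 (ENSMUSG00000067261, chr4:99544536-99546859), a repressor that keeps crest cells undifferentiated and is retained in Schwann cell precursors, was at 2.26, 2.13 and 2.17 scaled FPKM in mutant males, against 1.45, 1.497 and 1.77 in wild type males. The male groups did not overlap, yet the log2 difference of 0.38 was not called (95% interval -0.05 to 0.81, limma adjusted p = 0.192). Mutant females were at 0.95, 2.00 and 1.57 and wild type females at 1.05, 1.00 and 1.58, and these groups overlapped. Over both sexes the difference was 0.29 (limma adjusted p = 0.111), and it was called without mutant female 1, at 0.40 (limma adjusted p = 0.0125). Corrected for GC content and length it was -0.04 (limma adjusted p = 0.885).

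Among the receptors, Erbb3 (ENSMUSG00000018166, chr10:128403392-128425521) had 18.45, 19.0 and 14.4 scaled FPKM in mutant males against 15.9, 15.9 and 17.6 in wild type males. It had 22.9, 14.9 and 15.7 in mutant females against 14.5, 13.6 and 16.2 in wild type females. The groups overlapped in both sexes, and the difference over both sexes was 0.15 (95% interval -0.09 to 0.39, limma adjusted p = 0.295), or -0.02 with FPKM scaled to their sum. Its highest library, mutant female 1, also had the highest sum of 7 epithelial markers, at 928 scaled FPKM against 430 and 548 in the other mutant females and 324 to 387 in wild type females. The part of epithelium in the Erbb3 value was not tested.

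The partners of Erbb3 did not all behave alike. Averaged over males and females, Erbb2, the kinase that pairs with Erbb3, rose by 0.51 (limma adjusted p = 0.000571), and the ligand Nrg1 stood at -0.07 (limma adjusted p = 0.656). Of 7 tested genes on the neuregulin list 2 rose, Erbb2 and the ligand Nrg2 by 0.34, and 1 fell, the sheddase Adam17 by 0.26 (limma adjusted p = 0.0425 for Nrg2 and 0.00881 for Adam17). In the same comparison 18.9% of all tested genes rose, 21.6% fell and 40.6% were called in either direction. Nrg2 lost its call without any 1 of 7 libraries. With GC content and length corrected, 0 of the 7 were called by limma, with 2 at an unadjusted p under 0.05, and Erbb2 was at 0.25 (limma adjusted p = 0.0544).

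Ednrb (ENSMUSG00000022122, chr14:104052061-104081838) was at 24.6, 25.3 and 24.4 scaled FPKM in mutant males, against 28.3, 28.2 and 29.1 in wild type males. The male groups did not overlap and were each tight, but the difference of -0.20 was not called (95% interval -0.66 to 0.26, limma adjusted p = 0.539) in the fit of all 4 groups, which share an estimate of spread. Mutant females were at 10.3, 23.1 and 17.7 against 26.4, 24.3 and 29.6 in wild type females. All 3 mutant females lay below the wild type females, with mutant female 1 far below, and Ednrb fell by 0.71 (95% interval -1.17 to -0.24, limma adjusted p = 0.0282). The mean of the male and female differences was -0.45 (SE 0.15, limma adjusted p = 0.0308). When the fit held only the 2 groups compared, the call moved to the other sex: Ednrb was called in males (limma adjusted p = 0.0431) and not in females (limma adjusted p = 0.116).

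Ednrb was no longer called in females when wild type female 1 or 3 was left out (limma adjusted p = 0.0722 and 0.0953). The call over both sexes was lost without any 1 of 8 libraries (limma adjusted p of up to 0.0707) and held without wild type female 2 or any 1 mutant female. Without mutant female 1 the female difference was -0.39. Mutant female 1 also had the lowest sum of 6 endothelial markers, 57.4 scaled FPKM against 105 and 93.3 in mutant females 2 and 3 and 108 to 119 in wild type females. The part of endothelium in the Ednrb value was not tested.

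On the ligand side of Ednrb, averaged over the sexes, the endothelin converting enzyme Ece1 rose by 0.57 (limma adjusted p = 7.56e-05) and the ligand Edn1 by 0.39 (limma adjusted p = 0.02). Edn3, the ligand that acts on crest cells, stood at 0.20 (limma adjusted p = 0.439). Its level was widely spread in mutant females, at 2.95, 5.59 and 8.86 scaled FPKM against 4.43, 5.41 and 5.31 in wild type females, and mutant female 1 was again the lowest. Of 5 tested endothelin genes 2 rose and 0 fell, where 18.9% of all tested genes rose and 21.6% fell. The correction for GC content and length left the endothelin counts at 2 and 0, with 17.4% of all genes then called in either direction. Without wild type female 1 the adjusted p of Edn1 was 0.0516.

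Ngfr (ENSMUSG00000000120, chr11:95459644-95478561), the p75 neurotrophin receptor of immature Schwann cells, was at 25.1, 23.1 and 22.9 scaled FPKM in mutant males against 30.8, 29.95 and 21.9 in wild type males. Mutant females had 12.1, 19.2 and 9.24 and wild type females 14.8, 14.8 and 16.4. The genotypes overlapped in both sexes, and the value over both sexes was -0.22 (95% interval -0.55 to 0.11, limma adjusted p = 0.263). It was called when mutant female 2 was left out, at -0.36 (limma adjusted p = 0.0179), and once GC content and length were corrected, at -0.48 (limma adjusted p = 0.0498). Of the 9 tested genes on the neurotrophin list 0 were called by limma over both sexes, with 0 at an unadjusted p under 0.05. Of all tested genes 40.6% were called in that comparison. Bdnf stood at 0.32 to 0.59 scaled FPKM over the 12 libraries and did not reach the filter.

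Cdh19 (ENSMUSG00000047216, chr1:110816056-110905093), a cadherin of Schwann cell precursors, was called in both sexes. Its scaled FPKM were 0.72, 1.07 and 0.765 in mutant males, against 2.19, 1.73 and 1.74 in wild type males. Mutant females were at 0.47, 0.72 and 0.40, against 1.13, 1.18 and 1.84 in wild type females. Every wild type library was thus above 1 FPKM, and of the mutant libraries mutant male 2 alone was. Cdh19 therefore passed the filter, 1 FPKM in 3 or more libraries, through its level in wild type. The genotypes did not overlap in either sex, and the mean in mutants was 0.452 times that of wild type in males and 0.383 times in females. On the log2 scale, which understates changes at such low levels, Cdh19 fell by 0.82 in males (95% interval -1.23 to -0.41, limma adjusted p = 0.0126). It fell by 0.86 in females (95% interval -1.28 to -0.45, limma adjusted p = 0.00673) and by 0.84 on average (SE 0.13, limma adjusted p = 0.00061). The female and averaged calls held without any 1 of the 12 libraries, whereas leaving out mutant male 1 or wild type male 1 ended the male call (limma adjusted p = 0.0559 and 0.0588). The value in males was -0.51 when the 3 libraries with Rn7sk were left out, which leaves 1 mutant male assumed to vary like the other groups (limma adjusted p = 0.446).

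Fabp7 (ENSMUSG00000019874, chr10:57660977-57664546), the fatty acid binding protein of radial glia and immature Schwann cells, was at 22.2, 14.7 and 17.3 scaled FPKM in mutant males, against 23.7, 24.8 and 30.5 in wild type males. The male groups did not overlap, and the difference of -0.55 was not called (limma adjusted p = 0.399). Mutant females were at 6.20, 19.3 and 3.60, against 23.1, 19.8 and 25.2 in wild type females. Mutant female 2 lay just under the lowest wild type female, and mutant females 1 and 3 far under it. Fabp7 fell by 1.497 in females (95% interval -2.43 to -0.56, limma adjusted p = 0.0236) and by 1.02 on average (SE 0.30, limma adjusted p = 0.0195). With only the 2 groups compared in the fit it was called in males (limma adjusted p = 0.0427) and not in females (limma adjusted p = 0.0959). Leaving out replicate 1 or 3 of either female group ended the female call (limma adjusted p at most 0.0733), and without mutant female 3 the difference was -0.996. The averaged call held without any 1 library, with a difference between -1.34 and -0.77.

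S100b (ENSMUSG00000033208, chr10:76089687-76096993), a calcium binding protein that rises as Schwann cells mature, was at 1.24, 1.17 and 2.28 scaled FPKM in mutant males, against 2.37, 1.90 and 1.09 in wild type males. Mutant females had 1.203, 1.69 and 1.151 and wild type females 1.26, 2.24 and 1.54. The genotypes overlapped in both sexes, and the value over both sexes was -0.19 (95% interval -0.60 to 0.23, limma adjusted p = 0.451).

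**Figure D2:**
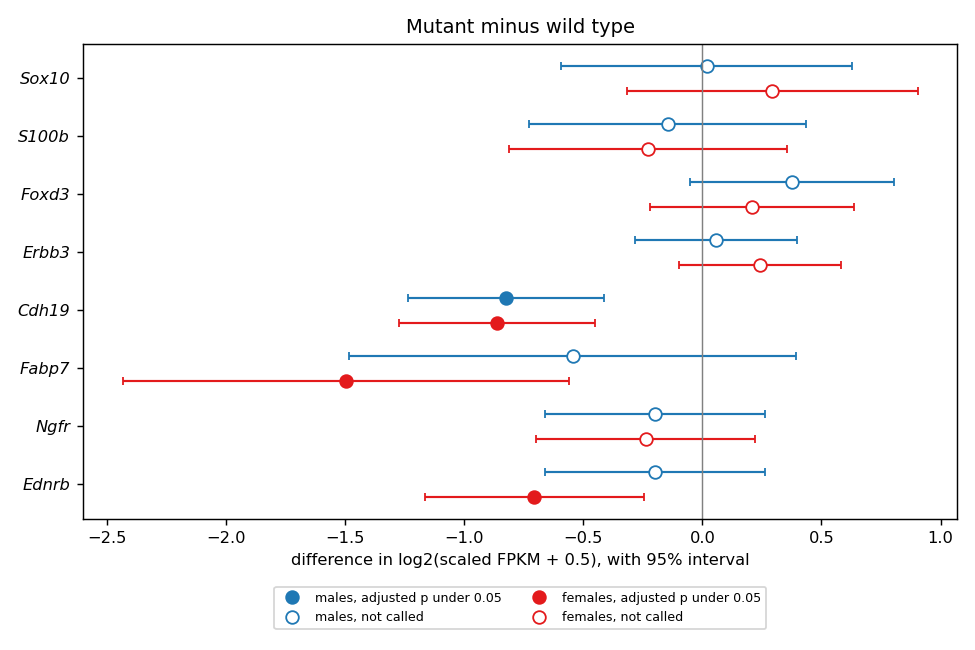
Mutant minus wild type difference of each gene in log2(scaled FPKM + 0.5) (horizontal axis), in males (blue) and females (red), with 95% intervals of the limma fit. Filled points are called, open points are not. The filled points are Cdh19 in both sexes and Fabp7 and Ednrb in females.

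In males, 1 of the 8 genes was called lower and 0 higher, where 11.6% of all tested genes were called lower, 8.64% higher and 20.3% in either direction. In females 3 were lower and 0 higher, where 15.9% of all genes were called lower, 12.1% higher and 28% in either direction. Over both sexes 3 were lower and 0 higher, with 21.6% of all genes lower, 18.9% higher and 40.6% in either direction. The share called lower in males is near the background, and so is the share called in either direction over both sexes. None of the counts was tested against the background. The median difference of the 8 genes was -0.17 in males, -0.23 in females and -0.20 on average, where all tested genes had medians of -0.001, 0.005 and 0.004. Groups did not overlap for 4 of the 8 genes in males and 3 in females, where 43.5% and 42.6% of all tested genes did not overlap.

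No difference of the mutant effect between the sexes was called. In limma's test of the difference, males minus females, 0 of the 8 genes were called, 0 had an unadjusted p under 0.05, and 0% of all tested genes were called. For Fabp7 this difference of effects was 0.95 (95% interval -0.37 to 2.28) and for Ednrb 0.51 (95% interval -0.15 to 1.16), so the calls in females alone do not show a sex-specific effect.

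Promoter sequence is shown for Fabp7 and Ednrb, which fell in mutant females, and for Ngfr, which was called between the sexes. RefSeq promoters of build GRCm38.p6, 250 bases before to 50 after the gene start, were found for 5 of the 8 genes. These are chr10:57784673-57784972 on the plus strand for Fabp7, chr14:103843652-103843951 on the minus strand for Ednrb and chr11:95587649-95587948 on the minus strand for Ngfr, written 5′ to 3′. Letters of a SOX-type motif would stand in capitals.
Fabp7: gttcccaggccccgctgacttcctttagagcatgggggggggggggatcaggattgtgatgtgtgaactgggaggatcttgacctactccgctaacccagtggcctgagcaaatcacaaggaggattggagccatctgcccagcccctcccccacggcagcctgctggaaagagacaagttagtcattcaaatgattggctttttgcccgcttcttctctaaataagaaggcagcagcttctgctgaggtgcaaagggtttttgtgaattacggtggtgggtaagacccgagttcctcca
Ednrb: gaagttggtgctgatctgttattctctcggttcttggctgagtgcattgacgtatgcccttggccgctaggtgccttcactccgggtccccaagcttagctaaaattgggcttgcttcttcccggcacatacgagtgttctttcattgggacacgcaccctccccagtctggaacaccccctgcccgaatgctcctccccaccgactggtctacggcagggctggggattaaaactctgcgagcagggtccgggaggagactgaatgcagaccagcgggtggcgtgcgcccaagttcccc
Ngfr: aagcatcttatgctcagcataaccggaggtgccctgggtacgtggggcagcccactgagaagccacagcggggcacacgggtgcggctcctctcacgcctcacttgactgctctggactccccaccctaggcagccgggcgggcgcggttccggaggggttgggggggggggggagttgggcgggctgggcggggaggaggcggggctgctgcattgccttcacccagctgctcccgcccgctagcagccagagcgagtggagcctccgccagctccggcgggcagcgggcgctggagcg
The motifs searched were ACAAAG and ACAATG on both strands, which do not overlap each other, and 18.7% and 12.6% of 32851 promoters of the same length held them. None of the 5 promoters held either motif, which says only that these letters are not in these windows. GC content was 54% for the Fabp7 promoter, 58.7% for Ednrb and 71.7% for Ngfr, against a median of 52.7% for all promoters.

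The 3 genes that fell in mutants had the lowest GC content of the 8. The longest transcripts of Cdh19, Fabp7 and Ednrb had 37.4%, 42.6% and 43.9% GC, those of S100b and Erbb3 48.3% and 51.2%, and those of Ngfr, Sox10 and Foxd3 58.6%, 61.8% and 65.1%. Ngfr, at -0.22, did not share the direction of the other 2 GC-rich genes, Sox10 at 0.16 and Foxd3 at 0.29. Over all tested genes, the median difference over both sexes was -0.35 among genes at 31% to 43.9% GC, the lowest of 5 bins of equal size, and 0.25 among those at 55.6% to 78.3%, the highest. After a per-library correction for both GC content and length these medians were -0.01 and 0.02. The corrected differences over both sexes were -0.30 for Cdh19, -0.68 for Fabp7 and -0.23 for Ednrb, and none of these was called (limma adjusted p = 0.143, 0.141 and 0.295). Ngfr was the gene that became called, while Sox10 and Foxd3 turned to -0.14 and -0.04. Within males and within females 0 of the 8 genes were then called by limma, against 4.08% and 7.81% of all genes, with 0 and 2 of the 8 at an unadjusted p under 0.05. In females the corrected differences were -1.16 for Fabp7, against -1.497 uncorrected, -0.46 for Ednrb, against -0.71, and -0.26 for Cdh19, against -0.86 (limma adjusted p = 0.12, 0.199 and 0.429 corrected). In males they were -0.20 for Fabp7, -0.01 for Ednrb and -0.35 for Cdh19.

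**Figure D3:**
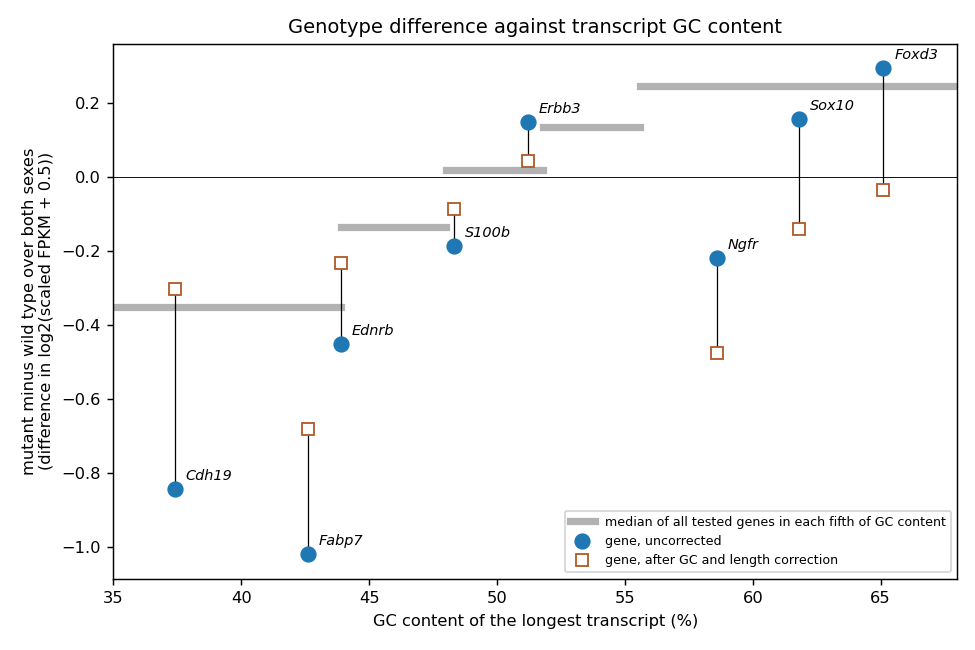
Mutant minus wild type difference over both sexes in log2(scaled FPKM + 0.5) (vertical axis) against the GC content of the longest transcript in percent (horizontal axis, shown from 35 to 68). Filled circles are the uncorrected differences, open squares those after the GC and length correction, and grey bars the medians of all tested genes in 5 GC bins of equal size, drawn only within the axis range. Cdh19 at -0.84, Fabp7 at -1.02 and Ednrb at -0.45 lie below the grey bar of the lowest bin at -0.35, and Ngfr at -0.22 lies below that of the highest at 0.25.

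Neuron markers also differed between libraries. The summed level of 14 neuron markers was 617, 468 and 549 scaled FPKM in mutant males 1 to 3, against 755, 679 and 735 in wild type males. It was 361, 613 and 84.4 in mutant females 1 to 3, against 492, 471 and 596 in wild type females. Mutant females 1 and 3, the lowest for Fabp7 and Ngfr, were thus also the lowest for the neuron markers, while mutant female 2 had the highest sum of all 6 females. Averaged over the sexes 3 of the 14 neuron markers fell and 0 rose, where 21.6% of all tested genes fell and 18.9% rose. The share of the markers that fell is thus near that of all tested genes. The falls were 0.89 for the RNA binding protein gene Elavl4, 0.98 for the nicotinic receptor subunit Chrna3 and 1.24 for the synaptic gene Snap25 (limma adjusted p = 0.0109, 0.0386 and 0.0423). With GC content and length corrected 0 of the 14 were called by limma, with 4 at an unadjusted p under 0.05, and without it Chrna3 and Snap25 each lost their call when any 1 of 9 libraries was left out. The corrected differences were -0.43 for Elavl4, -0.87 for Chrna3 and -0.78 for Snap25. The median of the 14 markers was -0.75 uncorrected and -0.67 corrected over both sexes, and -0.93 and -1.02 in females. Chrna3 stood at 1.92, 4.25 and 0.243 in mutant females 1 to 3, and at 4.45 to 5.003 in wild type females. The part of these neurons in the values of the glial genes was not tested.

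**Figure D4:**
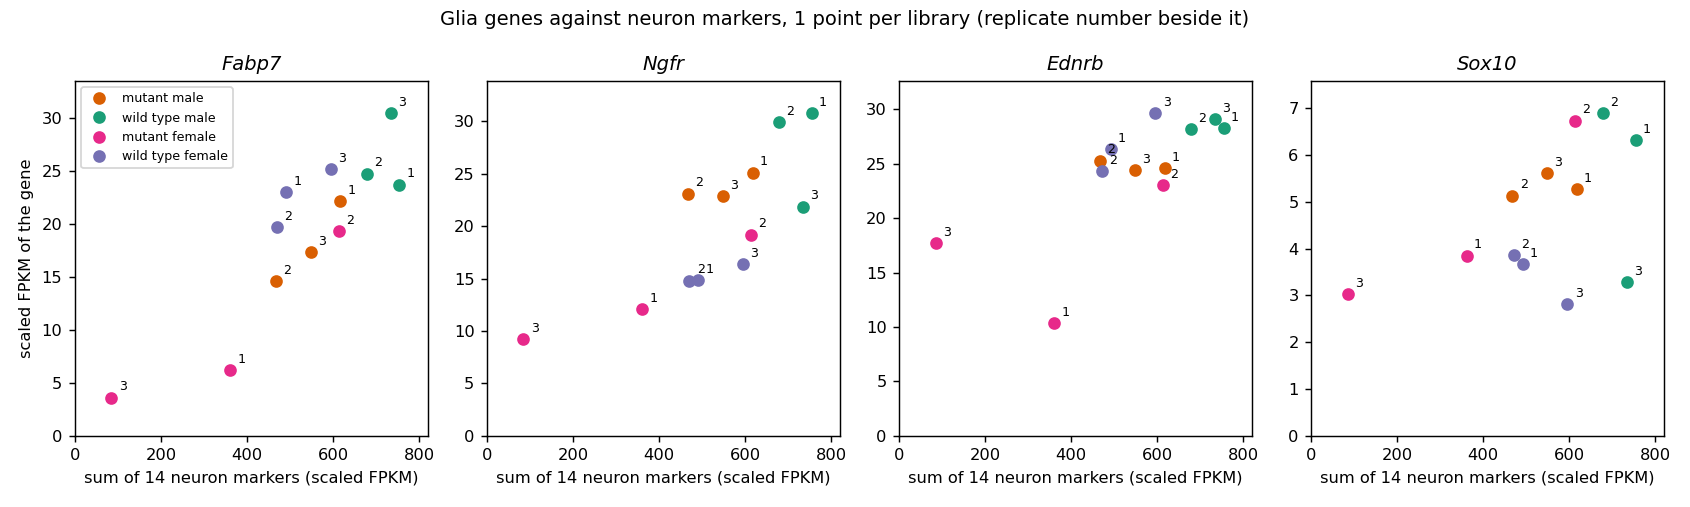
Scaled FPKM of Fabp7, Ngfr, Ednrb and Sox10 (vertical axes, from 0) against the summed scaled FPKM of 14 neuron markers (horizontal axes) in the 12 libraries, coloured by group with replicate numbers. Mutant females 1 and 3 are the leftmost points, at 361 and 84.4, and are the 2 lowest for Fabp7, Ngfr and Ednrb, while for Sox10 wild type female 3 is lowest.

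Other genes of the Schwann lineage were mixed. Of 15 tested genes on a list of precursor and immature Schwann cells, 2 fell and 1 rose, averaged over the sexes. Among all tested genes 21.6% fell and 18.9% rose, so both counts lie under the shares of all genes. Sostdc1 was among those that fell, and Tfap2a was the gene that rose. The secreted BMP and Wnt antagonist Sostdc1 fell by 0.695 (limma adjusted p = 0.00331) and by 0.50 after the correction for GC content and length (limma adjusted p = 0.0307). Tfap2a, a transcription factor of neural crest and surface epithelium, rose by 0.77 (limma adjusted p = 0.00217) and by 0.80 after the correction (limma adjusted p = 0.00541). Its scaled FPKM were 1.31 to 1.77 in mutant males and 0.48 to 0.67 in wild type males. Mutant females were at 0.82 to 1.90 and wild type females at 0.48 to 0.64. Tfap2a thus passed the filter through mutant libraries alone. Epithelial markers rose too, 4 of 7 over both sexes, where 18.9% of all tested genes rose. The part of epithelium in the Tfap2a value was not tested.

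Myelin genes were mostly not called. Of 10 tested, the gap junction gene Gjb1 rose by 0.48 (limma adjusted p = 0.0479), and with the correction 0 were called by limma, with 3 at an unadjusted p under 0.05. Gjb1 also lost its call without any 1 of 10 libraries. The myelin genes Mag and Egr2 and the glial filament gene Gfap were at 0.558 or lower in each of the 12 libraries and were not tested. On the neural crest list of 9 tested genes, Sox9, Tfap2a and Msx1 rose and 0 fell, beside the same shares of all tested genes, 18.9% and 21.6%. Msx1 lost its call without any 1 of 10 libraries and with the correction. Sox9, which acts before Sox10 in the crest and also in cartilage and prostate epithelium, rose by 0.67 and kept its call without any 1 library and after the correction (limma adjusted p = 0.000679 and 0.00262 after it).

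Pigment cells also use Sox10 and Ednrb, and 3 of 7 pigment cell markers stood out in 1 library. In mutant male 2 the pigment genes Dct and Pmel were at 3.82 and 3.83 scaled FPKM, and Tyr at 0.411. In the other 11 libraries Dct was at 0.0416 or lower, Tyr at 0.0054 or lower, and Pmel at 0.511 or lower. Of the other 4, Mlana and Slc45a2 were at 0.114 or lower in all 12 libraries, though highest in mutant male 2. Mitf and Tyrp1 were not raised there, at 1.60 and 0.216 against 1.34 to 3.18 and 0 to 0.541 in the other libraries. Sox10 and Ednrb in mutant male 2, at 5.14 and 25.3 scaled FPKM, were the lowest and the highest of the mutant males.

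Between male and female tissue, Ngfr was the gene called. In mutants Ngfr was at 22.9 to 25.1 scaled FPKM in males against 9.24 to 19.2 in females, a log2 difference of 0.85 (95% interval 0.39 to 1.31, limma adjusted p = 0.0351). In wild type it was at 21.9 to 30.8 in males against 14.8 to 16.4 in females, a difference of 0.81 that was not called in the fit of all groups (95% interval 0.35 to 1.27, limma adjusted p = 0.0665). Males and females did not overlap in either genotype. The call in mutants was lost without any 1 of 8 libraries (limma adjusted p at most 0.0965). With only the 2 groups compared in the fit, Ngfr was called in wild type (limma adjusted p = 0.0117) and not in mutants (limma adjusted p = 0.153).

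Averaged over both genotypes, a comparison added after the values were seen, Ngfr was higher in males by 0.83 (SE 0.15, limma adjusted p = 0.0048), and this held without any 1 of the 12 libraries and after the GC and length correction (limma adjusted p = 0.00404). Without the 3 libraries with Rn7sk, which leaves 1 mutant male, it was 0.77 and not called (limma adjusted p = 0.132). Of 9 tested genes on the neurotrophin list, 3 were lower in males over both genotypes and 0 higher. Among all tested genes 6.01% were lower and 7.5% higher. The neurotrophin Ntf3 and the receptor Ntrk2 were among the 3, at -0.55 and -0.47. Ntrk2 lost its call without any 1 of 5 libraries (limma adjusted p at most 0.0719), and Ntf3 kept it.

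Of the 8 genes, 0 were called between the sexes in wild type by limma, with 1 at an unadjusted p under 0.05, where 3.18% of all genes were called, 1.95% higher in males and 1.23% lower. In mutants 1 was higher in males and 0 lower, where 3.98% of all genes were called higher, 3.52% lower and 7.49% in either direction. Over both genotypes 1 was higher and 0 lower, where 7.5% of all genes were higher, 6.01% lower and 13.5% in either direction. The 8 differences over both genotypes lay between 0.07 for Erbb3 and 0.83 for Ngfr, with a median of 0.38 against 0.009 for all tested genes, and 5 of the 8 had an unadjusted p under 0.05. That of S100b, 0.09, turned to -0.13 without the 3 libraries with Rn7sk. Without mutant female 2, 6 of the 8 were called higher in males, Fabp7 by 1.01 (limma adjusted p = 0.002), where 1270 of 13861 genes were called higher and 15.3% in either direction. Groups did not overlap for 1 of the 8 genes in wild type and 3 in mutants, where 31.8% and 24.7% of all genes did not overlap. In mutants the 3 were Ngfr, Foxd3 and Ednrb, and Foxd3 at 0.46 and Ednrb at 0.60 were not called (limma adjusted p = 0.173 and 0.106).

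**Figure D5:**
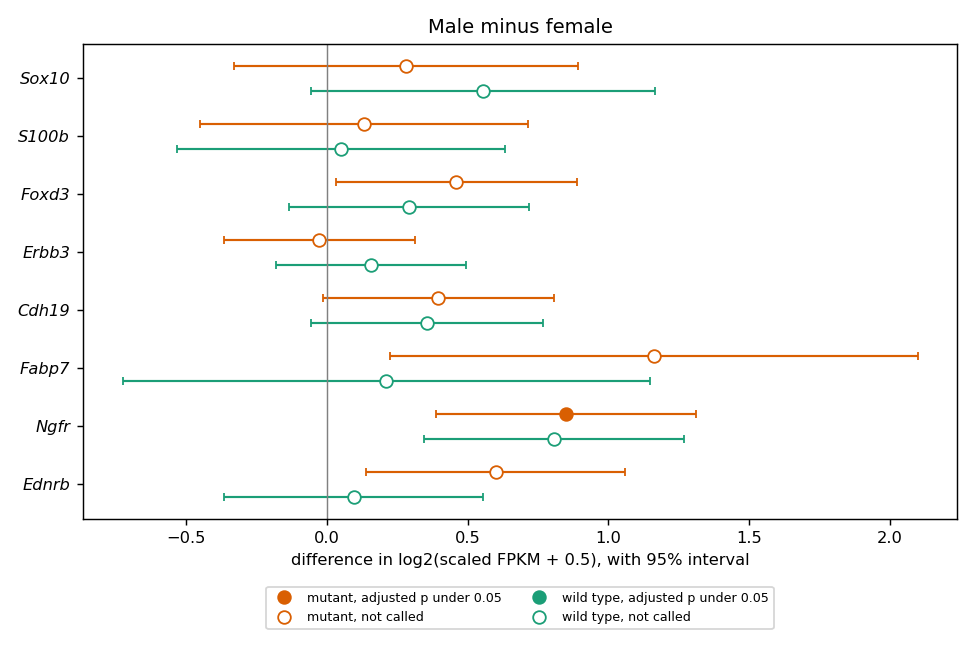
Male minus female difference of each gene in log2(scaled FPKM + 0.5) (horizontal axis) in mutants (orange) and wild type (green), with 95% intervals of the limma fit. Filled points are called, open points are not. The filled point is Ngfr in mutants at 0.85, beside 0.81 in wild type.

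Female tissue included the vagina, so the sexes also differed in what was dissected, and the part of this in the sex differences was not tested. The sum of 14 neuron markers was 468 to 617 in mutant males against 84.4 to 613 in mutant females, and 679 to 755 in wild type males against 471 to 596 in wild type females. Over both genotypes 7.5% of all tested genes were called higher in males and 6.01% lower. In the list of precursor and immature Schwann cell genes, 4 of 15 were higher and 0 lower. Among them were the adhesion receptor Adgrg6 by 0.54, Sostdc1 by 0.64 and Artn, the neurotrophic factor artemin, by 0.996. Of the 14 neuron markers 0 were called by limma in this comparison, with 5 at an unadjusted p under 0.05.

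Within groups, the library that stood highest or lowest was often the same for many of the 8 genes. Mutant female 2 was the highest of the mutant females for 7 of the 8 genes, the exception being Erbb3. Mutant female 3 was the lowest for 5 of them. Among wild type females, replicate 3 was highest for 6 and replicate 2 lowest for 5. Among males no replicate was highest or lowest of its group for more than 4 genes. These counts were not set beside those of all tested genes, so they do not show a pattern particular to the 8.

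Taking each library's deviation from its group mean over the 12 libraries, the gene whose pattern was most like that of Sox10 was Mcam, an adhesion molecule of vessels, smooth muscle and Schwann cells (Pearson r = 0.97, Spearman rho = 0.94). Lgi4, a factor secreted by Schwann cells, had r = 0.95, as did the RNA methyltransferase gene Mettl14, and Arrb2 and Slc35c2 had r = 0.94. These are the highest values over 13904 genes, and the points share each library's depth and scaling. Without wild type male 3 and mutant female 2, the libraries farthest from the median for Sox10, r lay between 0.855 and 0.944 for the 5 genes. Lgi4 had 1.70, 1.87 and 1.79 scaled FPKM in mutant males and 2.17, 2.26 and 1.37 in wild type males, and 1.14, 1.68 and 0.951 in mutant females and 1.44, 1.18 and 1.12 in wild type females. Its highest replicate was that of Sox10 in wild type males and mutant females, and another one in mutant males and wild type females. Of the other 7 glial genes Ngfr had r = 0.85, S100b 0.67, Fabp7 0.52, Ednrb 0.26 and Cdh19 0.25, while Foxd3 was at 0.01 and Erbb3 at -0.43. Without wild type male 3 and mutant female 2, r was 0.72 for Ngfr, 0.504 for S100b and 0.495 for Fabp7. It was then -0.075 for Ednrb, -0.076 for Cdh19, -0.302 for Foxd3 and -0.237 for Erbb3.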

How the data were processed

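Total RNA (RIN above 9.5), depleted of ribosomal RNA, was sequenced as strand-specific single-end libraries, per the labels' protocols. The deposited table holds FPKM computed by the authors, per the file headers, with 0 columns of other samples. The submitters' processing notes name cutadapt 4.1, STAR 2.7.10a, Cufflinks 2.2.1, bedtools 2.30.0 and builds mm39 and mm10, with no roles. Annotation and strand setting are not given in the sources used here, and the table's positions were taken as mm39. FPKM give no counts, so depth was read only in relative terms, from the steps of values under 0.05 FPKM, and no counting interval was made.

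Scaling used the median ratio to the geometric mean of 11897 genes that reached 1 FPKM in all 12 libraries. The 13904 genes reaching 1 FPKM in 3 or more libraries were fitted with limma 3.58.1 in R 4.3.3 as 4 group means on log2(scaled FPKM + 0.5), with an intensity trend and two-sided tests. Such differences understate changes of low genes. The fit was tested on simulated data with independent normal spread and no trend with GC content or depth. That test therefore does not cover such trends in these libraries. The GC and length correction subtracted per-library loess curves (span 0.3) over the longest GENCODE M21 transcript of 13735 genes. Loci overlapping the 8 genes stood at no more than 0.0799 FPKM.

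The 8 genes and the marker lists were chosen with earlier results of these data known. Named genes were all 8, their direct ligands and co-receptors, up to 3 called genes with the smallest p per list over both sexes, and the 5 most like Sox10. Mag, Egr2, Gfap, the pigment genes and the list genes named in the sex comparison over both genotypes were chosen after their values were seen. Some genes that the rule names are not reported here. Alternatives were pseudocounts of 0.1 and 1, other filters and scalings, only the groups compared, replicate number as a block, the GC and length correction, and leaving out each library. Same-numbered libraries did not deviate together as a rule: 3 of 18 such pairs had a correlation over 0.1, and 8 of 36 pairs with different numbers. The highest correlation, 0.317, was in a same-numbered pair, wild type male 3 and wild type female 3. Whether some numbers share a litter or batch was not tested.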

Additional observations from a re-analysis of the deposited data

How the results depend on the processing

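The counts of the 8 genes called between genotypes were 1 in males, 3 in females and 3 averaged over the sexes, and comparing males with females 0 in wild type, 1 in mutants and 1 over both genotypes. A fit with the replicate number as a block gave the same counts, 1, 3, 3, 0, 1 and 1. Whether the numbers pair libraries is not in the labels. The count in males was 0 at a filter of 5 FPKM, where Cdh19 was not tested. With only the groups compared in the fit it was 3 in males and 1 in females, and 1 in wild type and 0 in mutants between the sexes. Without a filter the count was 1 in females, 1 over both sexes and 0 in mutants between the sexes. Between the sexes in mutants it was 0 on FPKM as deposited. With FPKM scaled to their sum it was 2 in mutants and 2 over both genotypes. The correction for GC content and length, with or without the block, gave 0 in each sex and 1 over both sexes, the 1 being Ngfr. With only the 9 libraries without Rn7sk, an alternative chosen after seeing the data, it was 0 in males, 1 in females, 1 averaged over the sexes, 0 in mutants and 0 over both genotypes. Leaving out a library gave 0 to 1 in males, 1 to 4 in females, 2 to 4 over both sexes, 0 to 1 in wild type, 0 to 3 in mutants and 1 to 6 over both genotypes. The share of all genes called moved too: on leaving out a library it was 8.96% to 28.5% in males, 17.6% to 29.7% in females, 33.8% to 46% over both sexes, 1.16% to 7.15% in wild type, 3.12% to 9.88% in mutants and 7.89% to 19.7% over both genotypes. It was 4.08%, 7.81% and 17.4% in males, in females and on average with the GC and length correction, and 0.452%, 20.1% and 20% without the Rn7sk libraries. The test of the mutant effect between sexes gave 0 throughout.

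No called difference changed sign, and the reversals below were of differences that were not called. In males Sox10 was -0.125 and Erbb3 -0.091 on FPKM as deposited, -0.075 and -0.039 with FPKM scaled to their sum, and -0.229 and -0.075 with the GC and length correction. That correction also gave -0.053 for Sox10 and -0.187 for Foxd3 in females, and -0.141 and -0.035 over both sexes, the same with the block. Erbb3 over both sexes was -0.016 scaled to the sum. The male minus female mutant effect of Cdh19 was -0.008 at pseudocount 1, -0.014 on FPKM as deposited and -0.09 corrected, and that of Ngfr -0.015 on FPKM as deposited. Between the sexes, Erbb3 in mutants was 0.145 scaled to the sum and 0.119 without the Rn7sk libraries, where S100b was -0.131 in mutants, -0.135 in wild type and -0.133 over both genotypes.

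Leaving out a library moved Sox10 between -0.284 and 0.197 in males and -0.001 and 0.521 in females, Erbb3 between -0.011 and 0.181 in males, and S100b between -0.389 and 0.036 in males. Between the sexes S100b ranged over -0.027 to 0.211 over both genotypes, -0.104 to 0.264 in mutants and -0.134 to 0.291 in wild type, and Erbb3 over -0.141 to 0.164 in mutants. The male minus female mutant effects ranged over -0.126 to 0.168 for Cdh19, -0.299 to 0.007 for Erbb3, -0.05 to 0.344 for Foxd3, -0.19 to 0.317 for Ngfr, -0.161 to 0.264 for S100b and -0.577 to 0.02 for Sox10. The causes were not tested. With 3 libraries a group and no counts, the depth behind the low genes S100b, Foxd3 and Cdh19 is unknown.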
